A study of Mus musculus with 4 samples.

Results

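*Krt10*, *Krt1*, *Krt77* and *Krt78*, keratin genes of the layers above the epidermal basal layer, were read in single basal cells of mouse dorsal skin. The 4 genes were taken by name from 24378 gene rows, and all 4 had counts in every library. The cells came from 2 female *Ivl-CreERT2*/*R26-tdTomato* mice aged 57 days. All animals had received tamoxifen 2 days earlier (10 µg per g by the labels, whereas the study's methods state another dose), so traced and non-traced cells share genotype and treatment. Cre is driven by the promoter of *Ivl* (Involucrin), and cells that had used it carry the red protein tdTomato (Tom+), while cells without the label are called Tom-. Both were sorted as live CD49f+ LY6A+ CD34- cells, the surface gate for basal interfollicular epidermis, and placed on separate Fluidigm C1 chips of 96 wells.

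There were 4 libraries, a Tom+ and a Tom- chip under each of 2 run tags, called runs here. The 161 wells of 384 with at least 2000 molecules on genes were kept as cells, 35 and 58 Tom+ cells from runs 1 and 2 and 20 and 48 Tom- cells. Molecules were counted as unique molecular identifiers (UMIs) at the 5′ end of transcripts, so a UMI stands for 1 molecule whatever its length. The kept cells of a library held 81630 to 305407 UMIs in all. The basal marker genes *Krt5* and *Krt15* had UMIs in all 161 cells, *Cd34* had none, and *Ly6a*, the gene of the sorted surface protein LY6A, was seen in only 20.0% to 45.0% of the cells of a library. The transcript of the reporter was found in 16 and 29 Tom+ cells and in 0 and 3 Tom- cells of runs 1 and 2. Whether the runs are the separate mice is not stated, and p-values measure the spread between these libraries, which may be technical.

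Keratins build the intermediate filaments of epithelial cells, and each filament is assembled from pairs of a type I and a type II chain. Basal keratinocytes make the type I keratins KRT14 and KRT15 with the type II keratin KRT5. As they differentiate they switch to type I KRT10 with type II KRT1, the main filament pair of the spinous layer. KRT77 and KRT78 are further type II keratins of differentiating epidermis, expressed at lower levels.

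*Krt10* is the only type I gene of the 4. In GENCODE vM21 on GRCm38 it lies on chromosome 11 from 99385254 to 99389364. The type II genes lie on chromosome 15, *Krt1* from 101845426 to 101850794, *Krt77* from 101858731 to 101869705 and *Krt78* from 101946001 to 101954287. All 4 are on the minus strand. *Krt77* is the next protein-coding gene after *Krt1*, and *Krt76*, *Krt4* and *Krt79* stand between *Krt77* and *Krt78*. An antisense gene, *Gm11940*, overlaps *Krt10* and has no row of its own in the files. Since the reads mark transcript starts, the 250 bases upstream of the annotated start are shown for the genes with an entry in the RefSeq promoter set of GRCm38.p6. Those are *Krt10* (chr11:99389365-99389614), *Krt77* (chr15:101869706-101869955) and *Krt78* (chr15:101954288-101954537), each read 5′ to 3′ on the minus strand, and capitals mark TATAAA or TATATA. No entry was given for *Krt1*.
Krt10: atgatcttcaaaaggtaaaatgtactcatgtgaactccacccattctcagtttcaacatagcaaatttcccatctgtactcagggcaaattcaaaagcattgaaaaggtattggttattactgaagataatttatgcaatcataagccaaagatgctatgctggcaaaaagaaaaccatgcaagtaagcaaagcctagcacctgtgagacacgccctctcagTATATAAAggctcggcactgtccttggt
Krt77: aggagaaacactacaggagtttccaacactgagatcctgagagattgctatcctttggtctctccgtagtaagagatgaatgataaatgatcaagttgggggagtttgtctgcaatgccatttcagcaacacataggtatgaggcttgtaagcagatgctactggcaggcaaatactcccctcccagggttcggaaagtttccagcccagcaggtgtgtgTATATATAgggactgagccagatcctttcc
Krt78: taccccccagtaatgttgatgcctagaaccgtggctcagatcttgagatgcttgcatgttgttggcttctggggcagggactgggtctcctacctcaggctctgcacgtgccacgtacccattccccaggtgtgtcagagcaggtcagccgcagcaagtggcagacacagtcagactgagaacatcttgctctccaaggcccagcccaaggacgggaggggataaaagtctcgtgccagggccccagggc
The letters TATAAA and TATATA, searched on both strands, overlap 26 to 21 and 28 to 23 bases before the start of *Krt10*. TATATA occurs at 30 to 25 and 28 to 23 bases before the start of *Krt77*. Neither was found upstream of *Krt78*, while 15.6% of 32851 upstream windows of this length hold at least 1 of them. TATATA was added to the search after these sequences had been read. Only these exact letters were searched, and related letters, such as GATAAAA near the end of the *Krt78* window, were not counted. The AP-1 letters TGANTCA were found in none of the 3 windows and in 6.75% of all windows.

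The first question was how much of each gene Tom+ and Tom- cells held. *Krt10*, *Krt1* and *Krt77* were higher in Tom+ than in Tom- cells in both runs, by 4.61-, 4.68- and 5.21-fold in the group means. *Krt78* was rarer and higher by 3.51-fold, which did not pass the test. The ranges of the groups were apart for *Krt78* as for the other genes. With so few libraries such a separation is weak evidence by itself, and its share among all genes is not given here.

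*Krt10* had 919 UMIs in Tom+ run 1 and 1578 in Tom+ run 2, beside 138 in Tom- run 1 and 129 in Tom- run 2. Per 10000 UMIs of a library, this was 58.4 and 51.7 in Tom+ and 16.9 and 6.99 in Tom-. The Tom+ libraries lay close together, while Tom- run 1 stood above Tom- run 2. *Krt10* differed by 2.23 ± 0.30 (SE, n = 2 against 2 libraries) on the log2 scale, with an adjusted p of 0.000174 by edgeR's quasi-likelihood test across all genes.

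*Krt1*, the type II partner of *Krt10*, had 492 and 721 UMIs in the Tom+ libraries and 64 and 72 in the Tom- libraries. Its level was 31.3 and 23.6 per 10000 UMIs in Tom+ and 7.84 and 3.90 in Tom-. As for *Krt10*, the higher of the Tom- values lay well under the lower of the Tom+ values. The log2 fold change of *Krt1* was 2.25 ± 0.30 (SE), with an adjusted edgeR p of 0.000174.

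*Krt77* had 55 and 118 UMIs in Tom+ and 8 and 8 in Tom-, or 3.50 and 3.86 per 10000 against 0.980 and 0.433. Its log2 fold change was 2.51 ± 0.43 (SE), with an adjusted edgeR p of 0.00375. In cells with at least 5000 UMIs the log2 fold change of *Krt77* was 2.26 and the adjusted edgeR p 0.103. *Krt78* had 24 and 35 UMIs in Tom+ and 4 and 5 in Tom-, or 1.53 and 1.15 per 10000 against 0.490 and 0.271. Its log2 fold change was 1.85 ± 0.57 (SE) with an adjusted edgeR p of 0.146, and the log2 value was 1.15 when the 5% of cells with the most UMIs were left out. Across all genes, 38 of 3070 tested, or 1.24%, passed the threshold of 0.05, and 26 of them, or 0.847%, were higher in Tom+ while 0.391% were lower. Of the 4 keratin genes, 3 were among these 26.

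The transcripts were not spread evenly over cells. In the Tom- libraries the 3 cells with the most *Krt10* held 76.1% and 67.4% of its UMIs in runs 1 and 2, against 26.3% and 17.9% in Tom+. For *Krt1* the top 3 cells held 85.9% and 72.2% of the UMIs in Tom- and 39.6% and 17.8% in Tom+. All *Krt77* and *Krt78* UMIs of each Tom- library lay in at most 3 cells. At full depth 5 of 20 cells of Tom- run 1 and 28 of 48 of Tom- run 2 held none of the 4 transcripts.

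To compare cells of unequal depth, each was thinned at random to 2000 UMIs. Among Tom+ cells, 77.1% of run 1 and 96.6% of run 2 then held *Krt10*, and among Tom- cells 55.0% and 22.9% did. *Krt1* was present in 80.0% and 93.1% of the Tom+ cells, as opposed to 25% and 18.8% of the Tom- cells. In a cell the level reached 66 *Krt10* and 55 *Krt1* UMIs of 2000, both maxima in Tom+ run 1, with medians of 13 and 10 for *Krt10* and 3 and 3.5 for *Krt1* in Tom+ runs 1 and 2. For *Krt77* the Tom+ libraries gave 37.1% and 48.3% and the Tom- libraries 15% and 6.25%, with at most 5 UMIs in a cell. For *Krt78* they gave 20.0% and 6.90% (Tom+) and 5.0% and 2.08% (Tom-), with at most 2.

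**Figure D1:**
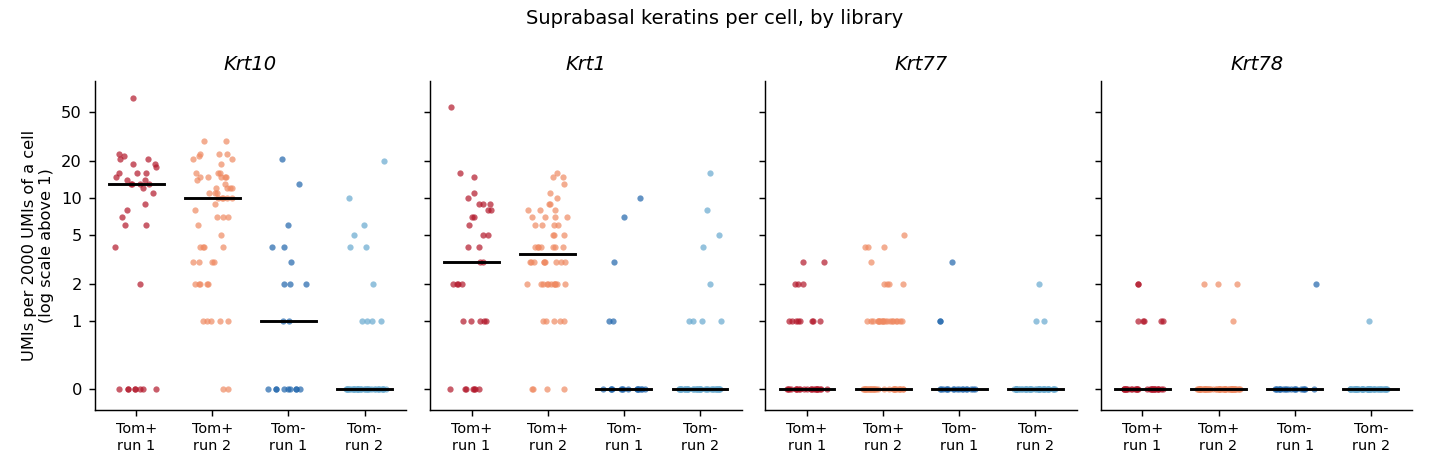
UMIs of each keratin per cell after thinning to 2000 UMIs (vertical axis, logarithmic above 1), by library on the horizontal axis. Points are cells, spread sideways at random, and black lines are medians, which lie at 13 and 10 for *Krt10* in the Tom+ libraries and at 1 and 0 in the Tom- libraries.

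The shares of Tom+ cells were above those of Tom- cells in both runs for each of the 4 genes, by 47.9, 64.7, 32.1 and 9.91 percentage points in the mean for *Krt10*, *Krt1*, *Krt77* and *Krt78*. With 2 libraries against 2, the exact two-sided permutation test gives a p of 0.333 for each, the smallest it can give. Shares of the rarer genes rest on the random draw. *Krt77* was found in 47 cells in this thinning and in 37.2 on average over 20 others, which ranged from 32 to 43. *Krt78* was found in 7 and 4 cells of Tom+ runs 1 and 2 in this thinning, and in 5.35 and 7.05 on average over the others. Taken as shares of the 35 and 58 cells of these runs, run 1 stayed higher on average, but by less than in this thinning. *Krt10* in Tom+ run 1 was found in 27 cells, under the 28 to 32 of the others.

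The second question was whether type I and type II transcripts came together in a cell. In Tom+ cells they nearly always did, while about as many Tom- cells with *Krt10* lacked a type II partner as had one. These shares also depend on how common type II transcripts were in each library. Of the thinned cells with *Krt10*, a UMI of *Krt1*, *Krt77* or *Krt78* was present in 27 of 27 cells of Tom+ run 1 and 54 of 56 of Tom+ run 2. The Tom- libraries had 6 of 11 and 5 of 11 such cells. These shares are 100% (95% exact binomial interval 87.2% to 100%), 96.4% (87.7% to 99.6%), 54.5% (23.4% to 83.3%) and 45.5% (16.7% to 76.6%). At full depth they were 96.9%, 98.2%, 57.1% and 46.7%, so that the gap between groups was about as wide without thinning. Intervals cover counting error only. *Krt1* was itself common in Tom+, with 80.0% and 93.1% of all thinned cells in runs 1 and 2, beside 25% and 18.8% in Tom-. Relative to these values, the pairing share was raised more in the Tom- libraries. The pairing share counts *Krt77* and *Krt78* as well, however, while these values are for *Krt1* alone. The Tom+ values also left little room for a rise. Among thinned cells without *Krt10*, a type II UMI was seen in 3 of 8 (Tom+ run 1) and 1 of 2 (Tom+ run 2). For Tom- the counts were 0 of 9 and 5 of 37.

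Over all 161 thinned cells, 92 held both types, 13 held *Krt10* alone, 9 a type II gene alone and 47 neither. *Krt10* with *Krt1* was the most frequent combination, with 42 cells, followed by *Krt10* with *Krt1* and *Krt77* in 35. All 4 genes were seen in 6 cells, and in 18 at full depth. *Krt77* occurred without *Krt1* in 5 thinned cells, and *Krt78* occurred in none.

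The gap in pairing lay in cells with little *Krt10*. Cells were split at 6 *Krt10* UMIs of 2000, which corresponds to the study's cut-off for a *Krt10*-positive cell. With 6 or more, *Krt1* was present in 24 of 25, 37 of 37, 3 of 3 and 3 of 3 cells of the libraries, Tom+ before Tom- and run 1 before run 2. With 1 to 5 *Krt10* UMIs, *Krt1* was present in 2 of 2 and 16 of 19 Tom+ cells and in 2 of 8 and 2 of 8 Tom- cells. The mean *Krt10* level of these cells was alike, 2.57 UMIs in Tom+ and 2.38 in Tom-. They were not alike in the non-keratin differentiation gene *Krtdap*, seen in 12 of 21 Tom+ and 2 of 16 Tom- cells, so the gap was not particular to *Krt1*. With only 1 or 2 *Krt10* UMIs, *Krt1* was present in 9 of 11 Tom+ cells and 1 of 10 Tom- cells. The split was looked at after the pairing values had been seen, and Tom+ run 1 gives only 2 cells to it. Over 20 other thinnings the difference between the groups in the share with *Krt1* ranged from 26.9 to 82.6 percentage points around a mean of 52.6, against 67.1 here.

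**Figure D2:**
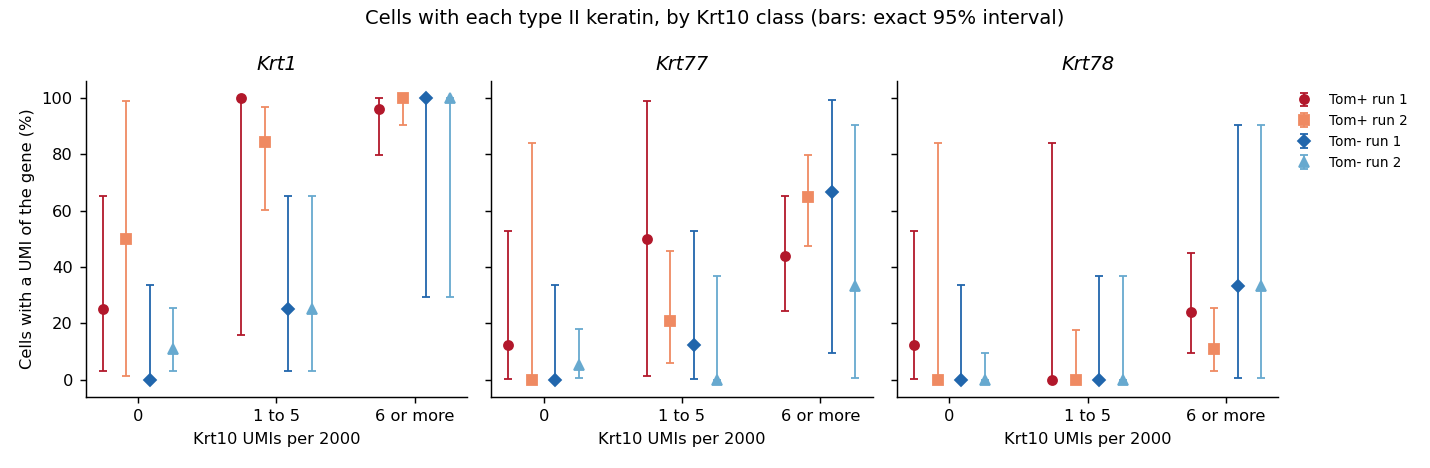
Share of thinned cells with at least 1 UMI of *Krt1*, *Krt77* or *Krt78* (vertical axis, %) in cells with 0, 1 to 5 and 6 or more *Krt10* UMIs of 2000 (horizontal axis), by library, with exact 95% binomial intervals over cells. For *Krt1* in the middle class, Tom+ libraries lie at 100% and 84.2% and both Tom- libraries at 25%.

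The ratio of *Krt1* to *Krt10* had similar medians in the libraries and varied between cells beyond counting error. In cells with at least 10 UMIs of the pair at full depth, the median share of *Krt1* in their sum was 29.8% and 29.8% in Tom+ and 34.0% and 30.4% in Tom- (25, 48, 4 and 6 cells). Single cells differed more than counting would give, with shares from 0% to 73.3% and a chi-square of 3.49 for each degree of freedom. Of these 83 cells, 64 lay between 20% and 50%. Across thinned cells the correlation of ln(UMI + 1) of *Krt10* and *Krt1* was 0.63 to 0.77 in the 4 libraries (20 to 58 cells each), a description of cells that share a library. The correlation of *Krt10* with *Krt14* was -0.75 to -0.71 and that of *Krt1* with *Krt5* was -0.69 to -0.31. The correlation of *Krt10* with *Krt15* had no common sign, with values from -0.19 to 0.28.

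The basal keratins differed in how far their levels fell in cells with much *Krt10*. *Krt14* and *Krt5* were lower in these cells in all 4 libraries, *Krt14* by more, while *Krt15* moved in no common direction. Per 10000 UMIs of all genes, *Krt14* stood at 221, 197, 193 and 154 in the cells without *Krt10* UMIs after thinning. Libraries are listed Tom+ before Tom- and run 1 before run 2. In the cells with 6 or more *Krt10* UMIs of 2000, *Krt14* stood at 8.10, 43.3, 35.1 and 1.56. *Krt5* stood at 188, 149, 141 and 141 in the former and at 76.4, 69.0, 73.7 and 70.4 in the latter. *Krt15*, the other basal type I keratin, stood at 101.8, 79.0, 67.5 and 123 in the former and at 89.1, 71.6, 152 and 138 in the latter.

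Among type II keratin UMIs of the cells with 6 or more *Krt10* UMIs, *Krt5* still made up 58.9%, 61.4%, 62.0% and 65.2%. There *Krt1* held 33.8%, 26.3%, 27.5% and 26.8%, *Krt77* 2.90% to 4.5% and *Krt78* 1.49% to 3.62%. Among type I UMIs of these cells *Krt15* held 47.7%, 35.5%, 60.0% and 67.8%, the largest share in each library. The Tom- values rest on 3 cells each. Since *Krt10* set the classes and is counted in the type I total, the type I shares differ between classes in part by construction, and they are shown as a description.

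**Figure D3:**
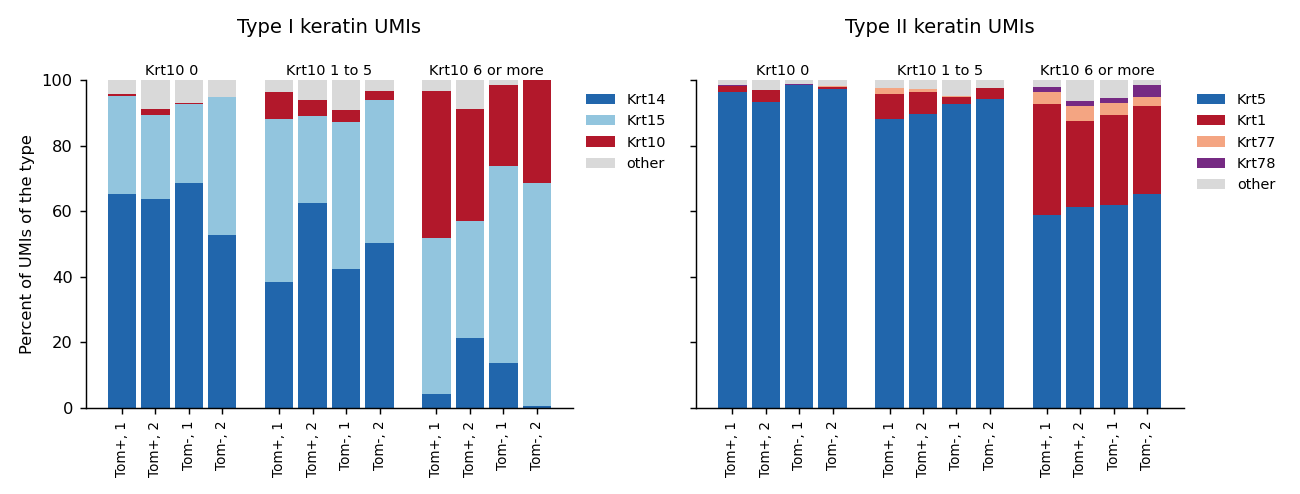
Makeup of type I (left) and type II (right) keratin UMIs at full depth, in percent (vertical axis), for the cells of each library and run in the 3 classes of *Krt10* UMIs of 2000. In the class of 6 or more, *Krt15* is the largest type I share in each library, from 35.5% to 67.8%, and *Krt5* the largest type II share, from 58.9% to 65.2%. The rise of *Krt10* across classes follows from how they were set.

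The balance between the types as a whole moved little. Pooled over libraries, type I genes gave 66.0%, 65.4% and 62.9% of all keratin UMIs in cells with 0, 1 to 5 and 6 or more *Krt10* UMIs. Keratins together gave 4.54%, 4.52% and 3.18% of all UMIs in these classes. The classes differ in their mix of libraries. From the lowest to the highest class the type I share went from 63.5% to 59.1% in Tom+ run 1 and from 65.9% to 64.2% in Tom+ run 2. In Tom- run 1 it rose from 66.2% to 68.0%, and in Tom- run 2 it fell from 66.9% to 65.4%.

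Per cell, *Krt10* as a share of *Krt10* plus *Krt14* was set against *Krt1* as a share of *Krt1* plus *Krt5*. Both shares were above 50% in 22 of 160 cells, only the type I share in 33, only the type II share in 0 and neither in 105. The cells past 50% in type I alone numbered 15 and 15 in Tom+ and 1 and 2 in Tom-. The absence of cells past 50% in type II alone depends on leaving *Krt15* out of the sum: with *Krt15* added to *Krt14*, 11 cells passed in both, 13 in type I alone and 11 in type II alone, of 161.

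**Figure D4:**
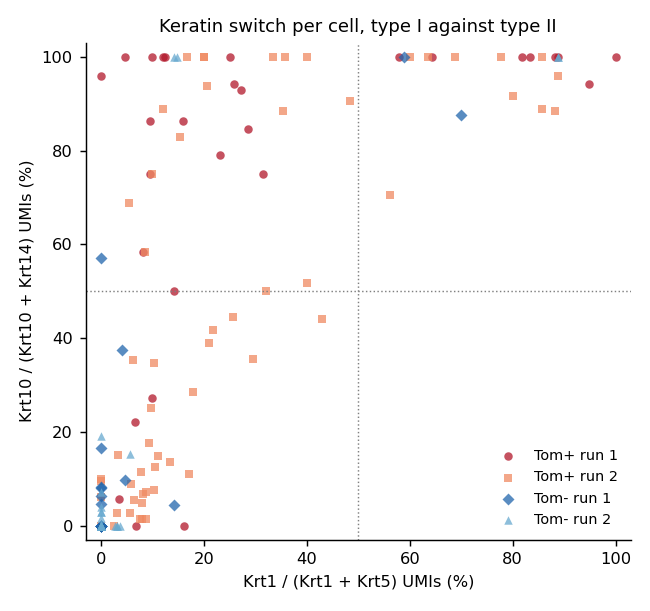
Each point is a thinned cell, with *Krt1* as a percentage of *Krt1* plus *Krt5* UMIs on the horizontal axis and *Krt10* as a percentage of *Krt10* plus *Krt14* UMIs on the vertical axis, by library. Dotted lines mark 50%. The upper left field holds 33 cells, the upper right 22 and the lower right 0.

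The next question was where *Krt77* and *Krt78* stood relative to *Krt1* and *Krt10*. Most of their UMIs came from cells with much *Krt10*, as did those of *Krt1*. Cells with 6 or more *Krt10* UMIs of 2000 held 86.7% (84.8% to 88.5%) of *Krt1* UMIs, 87.8% (82.3% to 92.1%) of *Krt77* UMIs and 95.6% (87.6% to 99.1%) of *Krt78* UMIs at full depth. Of 68 *Krt78* UMIs, 65 came from these cells, 0 from cells with 1 to 5 *Krt10* UMIs and 3 from cells with none after thinning. At full depth all 25 cells with *Krt78* also held *Krt10*.

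The proportion of *Krt77* to *Krt1*, pooled over libraries, had intervals that overlapped between classes, with 14.3% (4.81% to 30.3%), 10.8% (6.51% to 16.5%) and 12.4% (10.7% to 14.3%) of their summed UMIs in cells with 0, 1 to 5 and 6 or more *Krt10* UMIs. By library it ran from 9.65% to 14.6% in the highest class. The lowest class rests on 5 *Krt77* UMIs, 4 of them in Tom- run 2, where the middle class had 0 beside 25 of *Krt1*. For *Krt78* the pooled proportions were 9.09% (1.92% to 24.3%), 0% (0% to 2.45%) and 5.26% (4.09% to 6.66%). The interval of the middle class lay below that of the highest class. These intervals cover counting error and treat UMIs of a cell as independent, which the uneven cells above show they are not. By library, *Krt78* UMIs in the middle class were 0 in all 4, beside 20, 96, 8 and 25 of *Krt1*.

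A rarer transcript is missed more often, so the presence of 2 genes was compared with both reduced to the smaller UMI total of the pair in each library (mean of 100 draws). At the thinned depth *Krt10* and *Krt1* were alike, with 11.8 cells holding only *Krt10* and 12.4 only *Krt1*, and the libraries split 2 to 2 in direction. *Krt10* alone and *Krt77* alone were found in 21.9 and 21.0 cells, and *Krt1* alone and *Krt77* alone in 24.5 and 25.1. The difference between *Krt1* alone and *Krt77* alone, averaged over libraries, was -0.82% of cells in this thinning. In the 20 other thinnings it was 1.99% to 6.04%, and that between *Krt10* and *Krt77* 2.58% to 7.69%, all above 0. In the thinned cells with at least 5000 UMIs the differences were -7.50% and -7.60%, so the direction turned with the cells used. At full depth *Krt10* alone was found in 28.7 cells against 11.6 for *Krt77* alone, and *Krt1* alone in 32.1 against 14.4. *Krt78* alone was found in 9.40 cells against 28.1 for *Krt10* alone, in 10.5 against 28.1 for *Krt1* alone and in 10.8 against 20.7 for *Krt77* alone. All 4 libraries had the same direction in these 5 comparisons at full depth. There, *Krt77* and *Krt78* UMIs sat in fewer cells than equal numbers of *Krt10* or *Krt1* UMIs, and those of *Krt78* in fewer cells than those of *Krt77*. At the thinned depth the *Krt78* comparisons rested on 19 UMIs, and when at least 2 UMIs were asked all 3 turned, to -2.58% (against *Krt10*), -2.36% (against *Krt1*) and -2.41% (against *Krt77*) of cells. Full-depth values also carry the unequal depth of cells, and no test across cells was made.

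Position along differentiation was then read. Cells were first ordered by diffusion pseudotime, without keratin, differentiation and cell cycle genes, and split into 3 parts. From the first to the last part, ln(UMI + 1) of *Krt10* in thinned cells changed by -0.32 ± 0.43. *Krt1* changed by -0.13 ± 0.24, *Krt77* by -0.05 ± 0.14 and *Krt78* by 0.01 ± 0.22 (mean and SD over 4 libraries). They were higher in the last part in 1, 1, 2 and 2 of 4 libraries, so this order showed no rise. It also did not follow the summed UMIs of the other differentiation genes (Spearman correlation -0.07 over 161 cells). The 4 genes were then read along the order of that sum, which holds 24 genes such as *Krtdap*, *Sbsn* and *Lor* and no keratin. This order was split into 3 parts over all cells. It includes *Krtdap*, the gene most like *Krt10* and *Krt1* below, so it is not independent of them. *Krt10* rose from the first to the last part in all 4 libraries, by 2.08 ± 0.64 in ln(UMI + 1) of thinned cells (mean and SD over n = 4 libraries). *Krt1* rose by 1.46 ± 0.34 and *Krt77* by 0.40 ± 0.10, in 4 of 4 libraries each. *Krt78* differed by 0.07 ± 0.13, higher in 2 of 4 libraries. By the mean position of thinned UMIs in this order, minus that of the cells, *Krt78* lay later than the cells in all 4, by 9.53 to 61.5 percent of the order (mean 32.1), beside means of 23.1 for *Krt10*, 24.3 for *Krt1* and 21.2 for *Krt77*. The ranges of the 4 genes overlapped, and *Krt78* had 2 and 1 thinned UMIs in the Tom- libraries. *Krt14* fell by 2.85 ± 0.69 and *Krt5* fell by 1.01 ± 0.40 in all 4, while *Krt15* differed by 0.38 ± 0.58, higher in 3 of 4. The parts are uneven between libraries, with 3, 7, 11 and 33 cells in the first and 17, 31, 2 and 3 in the last.

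**Figure D5:**
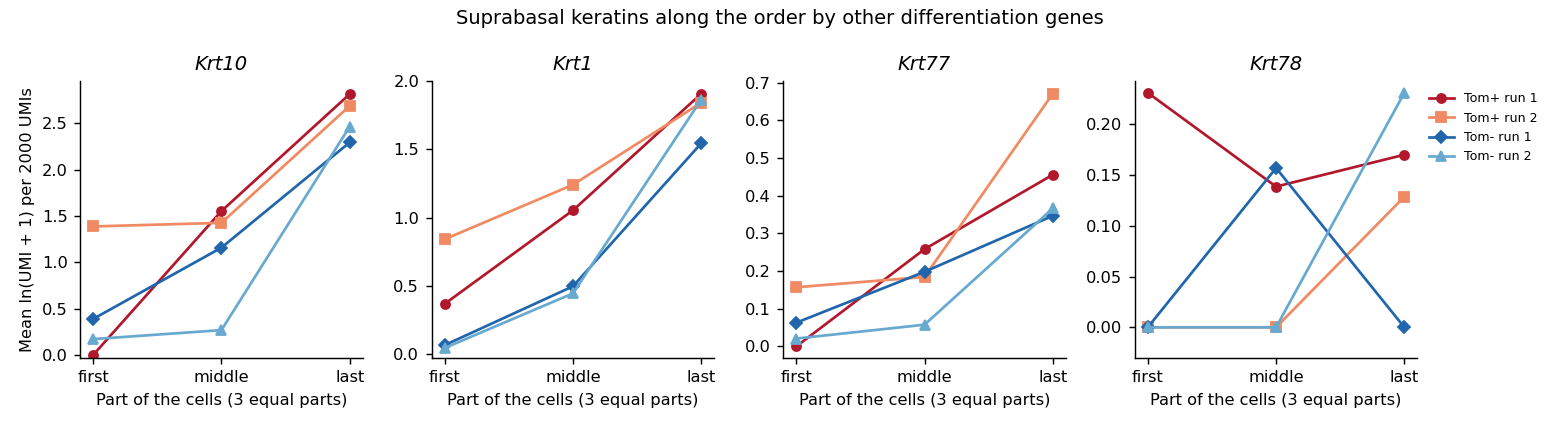
Mean ln(UMI + 1) of each keratin in thinned cells (vertical axis, with its own range per gene) in the first, middle and last of 3 equal parts of the cells ordered by 24 other differentiation genes (horizontal axis), by library. *Krt10*, *Krt1* and *Krt77* are highest in the last part in all 4 libraries, while *Krt78* is so in 2.

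The genes most like *Krt10* across thinned cells, by the mean over libraries of the within-library correlation among 2567 genes, were *Krtdap* (0.71), which encodes a secreted protein of differentiating keratinocytes, *Gltp* (0.59), a glycolipid carrier, *Itm2b* (0.57), the epidermal metallothionein *Mt4* (0.56) and *Elovl4* (0.56), which lengthens very long chain fatty acids. For *Krt1* they were *Krtdap* (0.60), *Mt4* (0.57), the ceramidase gene *Acer1* (0.52), *Itm2b* (0.49) and *Elovl4* (0.47), so 4 of 5 were shared. *Krt77* and *Krt78* had too few UMIs for such a ranking.

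Among the other genes of epidermal differentiation, 12 of 25 listed could be tested, and 8 were higher in Tom+ and 0 lower by edgeR, 6 higher by DESeq2 and 7 higher by limma-voom, with a median log2 fold change of 2.04 against -0.01 over all genes. Those 8 were *Krtdap* (2.95), *Sbsn* (2.77), *Calm4* (2.28), *Ptgs1* (2.15), *Calm5* (2.14), *Lypd3* (1.95), *Mt4* (1.57) and *Dmkn* (1.28). *Krt10*, *Krt1* and *Krt77* lay within this range. Of the 8 basal cell genes, 0 passed the edgeR test (median -0.71), 1 (*Krt14*) passed by DESeq2 and 0 by limma-voom. Of these 8 genes, 5 had an unadjusted p under 0.05 by edgeR, 4 by DESeq2 and 8 by limma-voom. Their log2 fold changes were -0.38 for *Krt5*, -0.81 for *Krt14* and -0.45 for *Krt15*. Of 11 genes for desmosomes and cross-linked envelope proteins that anchor keratin filaments, 10 were tested and 0 passed by edgeR, DESeq2 or limma-voom, with a median of 0.62 and an unadjusted edgeR p under 0.05 for 4. Of the 3 tested keratins of hyperproliferation and wounds, 0 passed by any of these tools and 0 had an unadjusted edgeR p under 0.05, with log2 fold changes of -0.31 for *Krt6a*, -0.05 for *Krt16* and -0.12 for *Krt17*. The last, also listed with the upper follicle keratins, was the only testable gene of those 3.

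Of 52 keratin rows, 13 had at least 20 UMIs in the kept cells. *Krt5* led with 8096 UMIs, followed by *Krt14* (7542), *Krt15* (6959), *Krt10* (2764) and *Krt1* (1349), and *Krt77* and *Krt78* had 189 and 68. Other keratins of suprabasal or thick epidermis were close to absent, with 2 UMIs of *Krt2*, 2 of *Krt76* and 0 of *Krt9*. *Krt79*, a keratin of the follicle infundibulum, had 108 of its 112 UMIs in Tom+ run 2. There, 1 cell held 88 of them, and 5 of 58 cells had any.

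Transcripts of other cell types were found in few cells. At least 3 of 7 infundibulum markers were seen in 10 cells, of which 6 had 6 or more *Krt10* UMIs. By the same rule of at least 3 markers, T-cell and Langerhans-cell markers marked 3 cells each, and bulge, sebaceous, melanocyte, fibroblast and endothelial markers 0. Without these cells the log2 fold changes of *Krt10*, *Krt1*, *Krt77* and *Krt78* were 2.18, 2.22, 2.42 and 1.90. Of 6 cells with at least 3 of 10 mitosis genes, 5 had *Krt10*, 3 *Krt1*, 1 *Krt77* and 0 *Krt78* UMIs after thinning, and 1 of the 6 had 6 or more *Krt10* UMIs.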

How the data were processed

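The authors sequenced 5′ STRT libraries of C1 chips, and the tables they deposited hold raw UMI counts for every gene in every well. The submitters' processing notes name mm10 (GRCm38), and the aligner and counter are not given in the sources used here. Of 24378 gene rows, 1207 are loci of a symbol. Of 384 wells, 169 had no gene UMIs and 54 fewer than 2000, and both were left out. No barcode names were shared between libraries, no doublet caller was run, and wells with high counts were kept.

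Each cell was thinned to 2000 UMIs (seed 1) for shares and levels per cell. Counts summed per library were tested with edgeR 4.0.16 in R 4.3.3 (TMM, filterByExpr, quasi-likelihood, Benjamini-Hochberg over 3070 genes, threshold 0.05), after a test on simulated data. Scanpy 1.11.5 gave the diffusion order (4000 variable genes, 20 components, 15 neighbours). Libraries of a group differed beyond counting (chi-square per degree of freedom 2.37 in Tom+ and 2.30 in Tom-).

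Alternatives were other depths, seeds, cell filters, tools (DESeq2 1.42.0, limma 3.58.1) and orders, and each library left out. Named genes were the 4 members, the basal keratins, the keratins with most UMIs, the called differentiation genes and the 5 genes most like a member with at least 200 thinned UMIs. The members and lists were chosen with earlier results of these data known. *Krt15* in the type I sum, the proportions to *Krt1* and scaled genes for the order were added after the data were seen.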

Additional observations from a re-analysis of the deposited data

How the results depend on the processing

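Of 274 values recomputed under alternatives, 226 stayed within their error or on their side of the threshold. Some of these changed sign within that error. *Krt10* alone minus *Krt1* alone, for example, went from 1.76% to -2.38% of cells without Tom- run 1. With 2 libraries a group, a left-out library leaves 1 that is assumed to vary like the rest. The count of 38 genes past the threshold became 8 in cells with at least 5000 UMIs, 24 with thinned sums, 27 to 65 without 1 library (65 without Tom- run 1) and 116 with the run as a replicate block. *Krt77* was not called with at least 5000 UMIs (log2 fold change 2.26) and *Krt78* was called only under the block (1.82, adjusted edgeR p of 0.0471). The runs are not stated to be mice, the deviations of same-numbered libraries correlated at 0.13, and no pairing was assumed. The block changed no call of *Krt10*, *Krt1* or *Krt77*. Under it, 4 of the 8 basal cell genes passed, *Krt14*, *Krt15*, *Col17a1* and *Trp63*, all lower in Tom+, against 0 without it. Leaving out 1 library, the log2 fold changes ranged from 1.77 to 2.87 (*Krt10*), 1.86 to 2.70 (*Krt1*), 1.98 to 2.98 (*Krt77*) and 1.47 to 2.15 (*Krt78*), with no call changed.

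The share difference was 54.0 points for *Krt1* with at least 5000 UMIs and 11.4 points for *Krt77* when at least 2 UMIs were asked. The share with *Krt1* among cells with 1 to 5 *Krt10* UMIs differed by 43.1 points at 2 UMIs and by 52.6 over 20 other seeds. Cells past 50% in type II alone were 0.345% over the other seeds and 6.78% with *Krt15* added.

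Presence at equal totals and the level along the order moved under many settings, and the cause was not tested. For *Krt10* alone minus *Krt77* alone, the difference was 10.1% of cells at full depth, 4.67% over the other seeds, -7.60% with at least 5000 UMIs and 36.2% with totals as they are. For *Krt1* and *Krt77* these were 9.39%, 3.57%, -7.50% and 27.5%. Against *Krt78*, full depth gave 10.9% (*Krt10*), 9.78% (*Krt1*) and 5.65% (*Krt77*), totals as they are gave 54.4%, 45.7% and 18.2%, and asking for 2 UMIs gave -2.58%, -2.36% and -2.41%, all turned in sign from 2.42%, 1.74% and 2.33%, the middle of which was within its spread.

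Along the diffusion order the last minus first part was -0.32, -0.13, -0.05 and 0.01 for *Krt10*, *Krt1*, *Krt77* and *Krt78*. The first principal component gave 1.34, 0.88, 0.23 and 0.19, the differentiation genes 2.08, 1.46, 0.40 and 0.07, and scaled genes 0.14 and 0.32 for *Krt10* and *Krt1*. No regression gave 0.14 for *Krt1* and 0.11 for *Krt77*. Without 1 library the values ran from -0.91 to 0.88 (*Krt10*), -0.54 to 0.43 (*Krt1*) and -0.23 to 0.23 (*Krt77*), so this order gives no direction. *Krt77* and *Krt78*, with 76 and 19 thinned UMIs, are limited by depth.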
